A study of Schima superba and Cryptocarya concinna with 24 samples.

Results

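The genes described here are transcription factors of leaf growth and patterning in leaves of the subtropical trees Schima superba and Cryptocarya concinna, sampled as seedlings. They were taken as the assembled transcripts (unigenes) whose best protein database hit names a homeobox, YABBY, TCP, growth-regulating factor (GRF), scarecrow, KNOTTED, WUSCHEL or LOB domain protein, with hits naming ethylene or auxin left out. The S. superba table held 113 such unigenes among 57053, and that of C. concinna held 116 among 60814, which makes 229 members of 117867 unigenes. The choice used descriptions and no measured value. Leaf RNA was sequenced from young and mature leaves of seedlings kept in full sunlight (100%) or under black nylon netting that let through 30% of it (low light). The seedlings were wild ones dug from an evergreen forest, and the labels name no line, allele or chemical treatment. Each species gave 4 groups, namely young and mature leaves in full light and young and mature leaves in low light, with 3 libraries per group and 24 libraries in all. Whether the 3 libraries of a group are 3 plants is not stated, so the tests speak of the scatter among these libraries, part of which may be technical.

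A leaf begins as a flat bulge on the flank of the shoot apex and acquires an upper and a lower side, a margin and a veined blade before its cells stop dividing. In Arabidopsis, class III homeodomain-leucine zipper (HD-Zip III) factors mark the upper side and YABBY factors the lower side, and WUSCHEL-related homeobox (WOX) factors act at the margin, where the blade grows out. GRF factors promote cell proliferation, and TCP factors of the CINCINNATA type restrain it and promote maturation. KNOTTED-like (KNOX) factors of the meristem are switched off as a leaf starts, and scarecrow-like (SCL) factors, of the GRAS family, include regulators of meristem maintenance and of light signalling.

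By description, the members of S. superba and C. concinna held 4 and 8 YABBY, 6 and 5 HD-Zip III, 4 and 3 WOX, 13 and 7 GRF, 10 and 13 TCP and 7 and 6 KNOX unigenes. A further 9 and 5 were HD-Zip IV, 15 and 20 other HD-Zip, 14 and 18 LOB domain (LBD), 9 and 11 other homeobox and 22 and 20 GRAS unigenes. The group called other HD-Zip holds classes I and II together with hits that name no class, a few lipid-binding (START) descriptions and a PHD-finger homeobox hit. No member is described as SHOOT MERISTEMLESS or as WUSCHEL itself, and most KNOX members are of the KNAT3 and KNAT7 type, which in Arabidopsis is active in differentiating organs. A unigene need not be a whole gene: 45 S. superba members and 49 C. concinna members are contigs of 28 and 22 assembly clusters, and contigs of a cluster can divide the reads of 1 gene between them, so their single values are uncertain. The best hit had an E-value at or below 1e-50 for 67 of the 113 and 76 of the 116 members, so some names rest on weaker likeness. A gene ontology term naming the nucleus, which the rule did not use, was attached to 23.9% of members in S. superba and 17.2% in C. concinna, against 3.42% and 2.09% of all unigenes with a hit. A function term naming DNA binding or a transcription factor was attached to 25.7% and 21.6%, against 2.85% and 1.58%.

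Levels are FPKM, the mapped fragments of a unigene scaled to its length and to the size of the library, given for replicates 1, 2 and 3 in that order, so levels of different unigenes can be set side by side. Differences are on the log2(FPKM + 1) scale with their standard error (SE) and 3 libraries per group, and each adjusted p comes from limma, with Benjamini-Hochberg adjustment over every unigene tested in the species. A unigene was called changed at an adjusted p under 0.05. A unigene was tested if 3 or more of the 12 libraries of its species reached 1 FPKM, which kept 108 S. superba members and 106 C. concinna members. The other 5 and 10 members were too low to be tested. The summed FPKM of a library ran from 769593 to 977277, and the number of reads was not given in the sources used here.

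Some libraries stood closer together or farther apart than others. Over unigenes with a pair mean of at least 50 FPKM, the log2 ratios of replicates 2 and 3 of young low light S. superba leaves had an SD of 0.372, against 0.783 to 1.34 for the other pairs of the species. Their values were not identical, and both were kept. Over the members this pair had an SD of 0.528, beside 0.477 and 0.557 for the other pairs of its group. Over the members, replicate 1 of mature full light S. superba leaves differed from replicates 2 and 3 with an SD of 1.45 and 1.32, against 0.479 between those. Without replicate 1 of mature full light leaves, 68 S. superba members in place of 74 were called by age in full light. Over all unigenes, 21792 in place of 23426 were called in that fit. The light results of S. superba without each of these libraries are given where they are described. In C. concinna, replicate 2 of mature low light leaves differed from replicates 1 and 3 over the members with an SD of 1.16 and 1.32, against 0.604 between those, and replicates 1 and 2 of young low light leaves with an SD of 1.29. Without that mature library 51 C. concinna members were called by age in low light, the same number as with it, and without replicate 1 or 2 of young low light leaves 44 each. The calls over all unigenes were then 22708, 15787 and 15535, in place of 20044.

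The members made up a small share of the transcriptome, smaller in mature than in young leaves. In S. superba they took 0.247 ± 0.00918% of summed FPKM in young leaves in full light, 0.176 ± 0.0142% in young leaves in low light, 0.0913 ± 0.00352% in mature leaves in full light and 0.101 ± 0.0171% in mature leaves in low light (SD, n = 3 each). In C. concinna the same shares were 0.220 ± 0.00124%, 0.201 ± 0.0206%, 0.109 ± 0.00362% and 0.132 ± 0.00535%. In both species every young library lay above every mature library. At their highest library, 62 of 113 S. superba members and 69 of the 116 in C. concinna reached 10 FPKM, and 14 and 16 reached 50 FPKM.

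**Figure D1:**
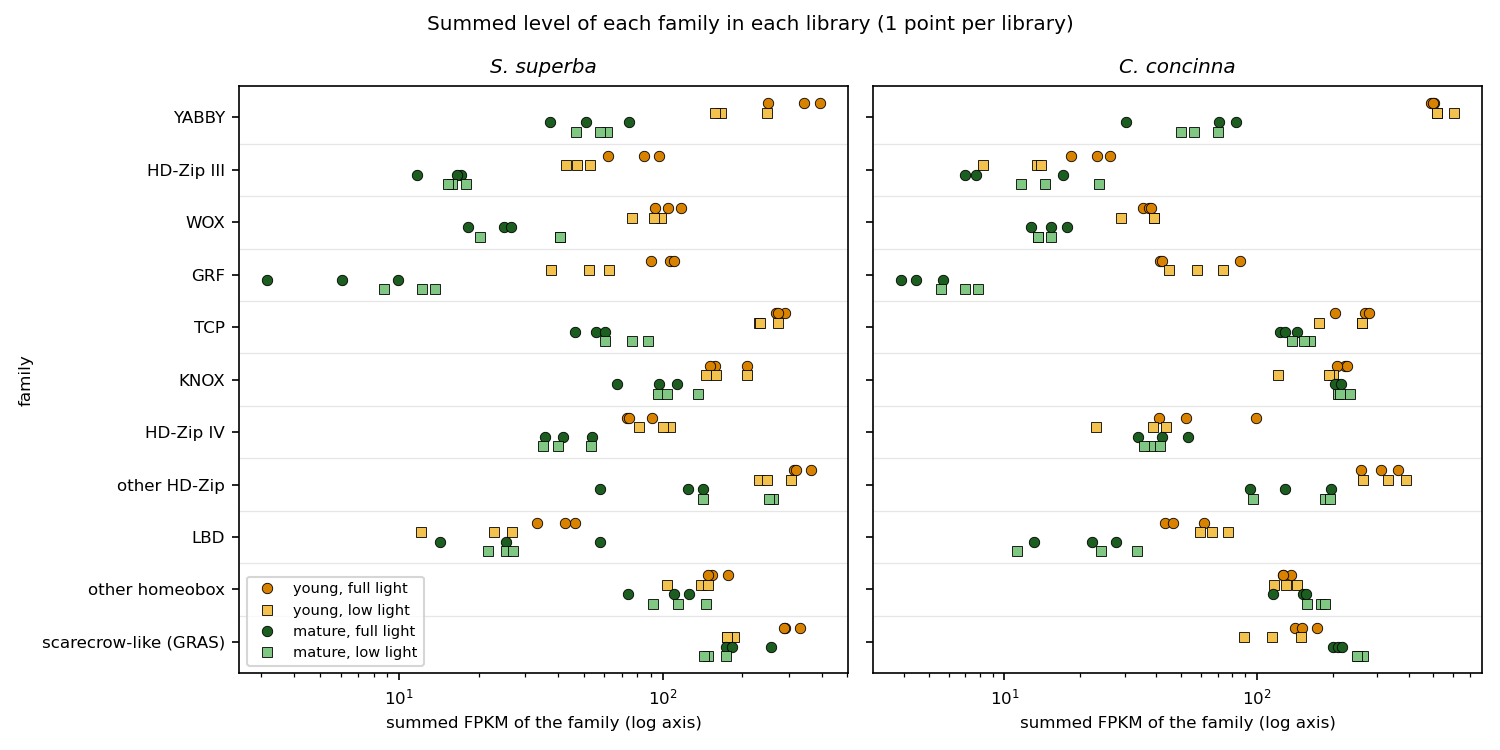
Summed FPKM of each family (log axis) in each library of S. superba (left) and C. concinna (right), with 1 point per library coloured by leaf age and light. The young points of the YABBY, GRF, WOX and TCP families lie to the right of all mature points in both species, whereas the scarecrow-like (GRAS) points of C. concinna lie at 89.2 to 173 in young leaves and at 200.1 to 264 in mature leaves.

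The first question was how the factors differ between young and mature leaves. In S. superba in full light, 72 of the 108 tested members were higher in young leaves and 2 were lower. Over all unigenes tested, 36.3% were called higher and 9.67% lower in that comparison, and 46% were called in either direction. The median log2 difference of the tested members was 1.44, beside 0.55 over all unigenes tested. In low light, 50 members were higher in young leaves and 5 were lower, against 29.5% and 9.19% of all unigenes, with medians of 0.90 and 0.39. In C. concinna, 44 of 106 tested members were higher and 4 lower in young leaves in full light, against 20.2% and 8.19% of all unigenes, with medians of 0.90 and 0.17. In low light the counts were 39 and 12, against 17.1% and 20.7%, with medians of 0.57 and −0.27.

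The comparisons of age in full and in low light share no library. In S. superba, 49 of 108 tested members were called higher in young leaves in both lights, 29 were called in neither and 1 was called in opposite directions. Of the 50970 unigenes tested in the species, 12030 were called higher in both, 22966 in neither and 135 in opposite directions. In C. concinna, 33 of 106 tested members were called higher in both lights, 4 lower in both and 44 in neither. Of the 53005 unigenes tested there, 7215 were called higher in both, 3553 lower in both and 28722 in neither. Read from the levels alone, all 6 young libraries lay above all 6 mature libraries for 53 of the 113 S. superba members, beside 25.3% of all unigenes tested, and for 39 of the 116 C. concinna members, beside 14.4%. The reverse held for 0 members in S. superba, beside 5.68% of all unigenes tested, and for 6 in C. concinna, beside 8.6%.

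Leaf samples are mixtures of cells, and in bulk samples fewer cells of a type and less RNA per cell cannot be told apart. A list meant to mark dividing cells took descriptions holding cyclin-A, cyclin-B or cyclin-D, case ignored. That pattern also takes in any cyclin-dependent kinase description, so it is not a list of cyclins alone. Its unigenes also summed to higher levels in young leaves. The 39 unigenes of this list in S. superba summed to 616 to 886 FPKM over the young libraries and to 342 to 548 over the mature ones. The 34 of C. concinna summed to 822 to 1186 FPKM over young and 213 to 331 over mature libraries. Of 36 tested in S. superba 21 were higher and 2 lower in young leaves in full light, and of 33 in C. concinna 21 were higher and 0 lower. In low light the counts of this list were 15 higher and 1 lower, and 20 higher and 1 lower. In S. superba 63.9% and 44.4% of the list were called in full and low light, against 46% and 38.7% of all unigenes. In C. concinna 63.6% of the list were called in each light, against 28.4% and 37.8% of all unigenes. Their part in the result was not tested. The labelled tissue carried its markers in every library, with 51 Rubisco small subunit and chlorophyll-binding unigenes of S. superba summing to 11555 FPKM or more and 59 of C. concinna to 16650.5 or more. They moved with age as well: in full light 3 of 36 tested were higher and 14 lower in young S. superba leaves, and 1 of 50 was higher and 17 lower in young C. concinna leaves. In low light the counts were 0 higher and 7 lower, and 16 higher and 17 lower. In S. superba 47.2% and 19.4% of these unigenes were called in full and low light, against 46% and 38.7% of all unigenes. In C. concinna 36% and 66% of them were called, against 28.4% and 37.8%. Their summed level in full light was 11555 to 16298 FPKM in young and 21754 to 33849.7 in mature S. superba leaves, and 16650.5 to 23828 against 36470.5 to 43472 in C. concinna. Their part in the result was not tested. A shoot apex list matched only CLAVATA3-type peptide genes and none described as SHOOT MERISTEMLESS or WUSCHEL. It summed to 87.2 to 110.1 FPKM in young and 16.8 to 40.3 in mature S. superba leaves, and to 10.6 to 40.5 and 0 to 2 FPKM in C. concinna. Floral homeotic descriptions, 7 and 12 unigenes, summed to at most 78.4 FPKM in any library, root descriptions to at most 149.9 FPKM and vascular descriptions to at most 342 FPKM, and their part in the results was not tested either.

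YABBY factors, which mark the lower leaf side, were higher in young leaves in nearly every test. All 4 YABBY unigenes of S. superba were higher in young leaves in both lights, as were all 7 tested in C. concinna in full light and 6 of them in low light. Over all unigenes, 36.3% and 29.5% were called higher in full and low light in S. superba, and 20.2% and 17.1% in C. concinna. The axial regulator YABBY1 of S. superba (CL2399.Contig1) stood at 72.3, 60.4 and 86.8 FPKM in young leaves in full light, at 50.4, 42.1 and 59.8 in young leaves in low light, at 3.96, 7.29 and 6.83 in mature leaves in full light and at 7.28, 7.02 and 4.42 in mature leaves in low light. The young and mature libraries did not overlap, and the log2 difference was 3.42 in full light (SE 0.25, adjusted p = 1.49e-06) and 2.85 in low light (SE 0.25, adjusted p = 9.19e-06). The most abundant member of C. concinna, a YABBY5-like unigene (CL3998.Contig1), stood at 159, 152 and 167 FPKM in young leaves in full light and at 244, 166 and 139 in low light. In mature leaves it stood at 3.67, 10.1 and 8.08 FPKM in full light and at 6.21, 6.19 and 7.2 in low light. Again no young library overlapped a mature one, with a log2 difference of 4.36 in full light (SE 0.31, adjusted p = 1.65e-06) and 4.57 in low light (SE 0.31, adjusted p = 9.47e-07). A second contig of its cluster (CL3998.Contig2) stood at 57.6, 45.1 and 28.4 FPKM in young leaves in full light but at 3.69, 0.43 and 34.4 in low light, and its low light age difference was not called, whereas the sum of both contigs was higher in young leaves by 4.34 in full light (adjusted p = 1.28e-07) and 4.51 in low light (adjusted p = 7.00e-08). The YABBY1 unigene of C. concinna (CL6475.Contig1) was lower in level and scattered among young libraries, at 4.65 to 37.9 FPKM, but at most 0.09 in mature ones. Another YABBY5-like contig (CL1831.Contig1) stood at 83.8 to 121 FPKM in young and 4.1 to 11.3 in mature C. concinna leaves. The YABBY4-like unigene of S. superba (Unigene29606) was the most abundant of its family there, at 193, 66.5 and 129 FPKM in young leaves in full light and 15, 35.5 and 17.3 in mature leaves, a difference of 2.44 (SE 0.46, adjusted p = 0.00111). A YABBY2 unigene of C. concinna (Unigene29076) was less depleted in mature leaves, at 14.7 to 43 FPKM there and 86.8 to 125 in young leaves.

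HD-Zip III factors, of the upper leaf side, were called evenly in S. superba and unevenly in C. concinna. All 6 HD-Zip III unigenes of S. superba were higher in young leaves in both lights, with median log2 differences of 2.22 and 1.18. Over all unigenes 36.3% and 29.5% were called higher, with medians of 0.55 and 0.39. A REVOLUTA-like unigene (CL2198.Contig2), named for a gene of upper-side identity and vascular patterning, stood at 24.1, 18.9 and 26.1 FPKM in young leaves in full light and at 16.5, 15.9 and 15.5 in low light. In mature leaves it stood at 6.39, 11.2 and 10.1 FPKM in full light and at 9.01, 9.27 and 7.68 in low light. Young libraries lay above mature ones throughout, by 1.25 on the log2 scale in full light (adjusted p = 5.11e-04) and 0.82 in low light (SE 0.21, adjusted p = 0.00978). In C. concinna 4 of 5 HD-Zip III unigenes were higher in young leaves in full light, but in low light 1 was higher and 1 lower, or 80% and 40% called against 28.4% and 37.8% of all unigenes. The REVOLUTA-like unigene of that species (CL1242.Contig7) stood at 7.59, 11.5 and 10.2 FPKM in young leaves in full light, 6.49, 3.41 and 4.4 in young leaves in low light, 6, 3.19 and 3.74 in mature leaves in full light and 5.27, 4.49 and 4.19 in mature leaves in low light. Only its young full light libraries stood above the rest, and the age difference of 1.04 in full light (SE 0.30, adjusted p = 0.0231) had an adjusted p of up to 0.0891 in the fits with a library left out. Summed over the 10 contigs of its cluster, 4 of them members, the level was 55.3, 58.9 and 56.5 FPKM in young and 16.1, 14.2 and 11.3 in mature leaves in full light, a difference of 1.97 (SE 0.29, adjusted p = 2.26e-04), and in low light the difference of 0.68 was not called (adjusted p = 0.0712). The C. concinna unigene that was lower in young leaves in low light, ATHB-14-like (Unigene29065), had a log2 difference of −2.05 (SE 0.72, adjusted p = 0.0396) that rested on single libraries: in the fits without 1 or more libraries the highest adjusted p was 0.324.

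WOX and GRF factors, which in Arabidopsis act in blade outgrowth and in cell proliferation, were higher in young leaves wherever they were called. Of 4 WOX unigenes in S. superba 3 were called in full and 2 in low light, against 46% and 38.7% of all unigenes. Of 3 in C. concinna 2 and 3 were called, against 28.4% and 37.8%. Most calls over all unigenes were also higher in young leaves in S. superba, at 79% and 76.3%. In C. concinna those shares were 71.1% and 45.2%. The WOX1 unigene of S. superba (Unigene3602), named for a factor of the leaf margin, stood at 59.9, 36.4 and 37.6 FPKM in young leaves in full light and at 19.8, 12 and 17.7 in low light. In mature leaves it was at 0, 0.34 and 0.14 FPKM in full light and at 0.19, 0.51 and 0.13 in low light. The difference of 5.27 in full light (SE 0.27, adjusted p = 1.47e-07) was the largest log2 difference by age among the called members of either species, and in low light it was 3.76 (SE 0.27, adjusted p = 2.14e-06). The WOX8 unigenes, of a subgroup known from the early embryo in Arabidopsis, kept a measurable level in mature leaves. In S. superba (Unigene9425) the level was 28.3 to 42.9 FPKM over the young and 6.57 to 20.4 over the mature libraries, with a difference of 1.85 in full light (SE 0.28, adjusted p = 2.60e-04). In C. concinna (Unigene30269) it was 14.1 to 24.4 and 5.65 to 10.9 FPKM, with a difference of 1.49 in full light (SE 0.27, adjusted p = 0.00143). A second WOX8 unigene of C. concinna (Unigene1245), at 8.51 to 13.3 FPKM in young and 4.42 to 8.36 in mature leaves, was called in low light, and the WOX13-like contig of S. superba (CL6703.Contig2), at 11.9 to 29.4 and 3.46 to 23.5 FPKM, was called in neither. Summed over the 2 contigs of its cluster, 1 of them a member, the level was called higher in young leaves in both lights, at 42.4, 36.7 and 39.1 against 11.1, 20.2 and 19.9 FPKM in full light (adjusted p = 0.00358) and with a difference of 1.12 in low light (SE 0.28, adjusted p = 0.0071). A WOX4 unigene, named in Arabidopsis for a factor of the vascular cambium, was found in C. concinna alone (Unigene28456), at 1.33 to 9.43 FPKM in young leaves and at most 0.17 in mature leaves.

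Of 12 tested GRF unigenes in S. superba, 9 were higher in young leaves in full light and 6 in low light, against 36.3% and 29.5% of all unigenes. The GRF6-like unigene Unigene9262 stood at 26.6, 22.9 and 23 FPKM in young leaves in full light, at 9.86, 7.05 and 11.9 in young leaves in low light, at 0.03, 0.28 and 0.52 in mature leaves in full light and at 1.07, 0.89 and 0.7 in mature leaves in low light. The 4 groups of this unigene did not overlap, and its age difference was 4.31 in full light (SE 0.24, adjusted p = 2.52e-07) and 2.47 in low light (SE 0.24, adjusted p = 1.91e-05). Another GRF6-like contig (CL6696.Contig1) stood at 8.09 to 22.6 FPKM in young and 0.11 to 1.43 in mature leaves. In C. concinna 5 of 6 tested GRF unigenes were higher in young leaves in each light, against 20.2% and 17.1% of all unigenes in full and low light. The GRF7-like unigene CL4818.Contig2 stood at 32.7, 13.3 and 12.6 FPKM in young leaves in full light and at 13.4, 15.2 and 23 in low light, and at 0.4 to 3.29 in mature leaves. The other GRF7-like contigs named here followed it, CL4818.Contig1 at 6.39 to 15.2 FPKM in young and at most 2.07 in mature leaves and CL3668.Contig3 at 7.41 to 25.6 and 0.14 to 0.48. The young libraries of CL4818.Contig2 lay above all its mature ones, by 3.39 in full light (SE 0.45, adjusted p = 1.72e-04) and 2.99 in low light (SE 0.45, adjusted p = 3.36e-04). Summed clusters gave 3.96 and 3.15 for CL4818 (adjusted p = 4.29e-05 and 1.88e-04) and 2.14 and 2.74 for CL3668 (adjusted p = 0.00111 and 1.56e-04).

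TCP factors were mixed. In S. superba 6 of 10 were higher and 1 lower in young leaves in full light, and 5 higher and 1 lower in low light, or 70% and 60% called against 46% and 38.7% of all unigenes. The TCP4-like unigene Unigene9161, of the CINCINNATA type, was among the most abundant members, at 120.0, 144 and 114 FPKM in young leaves in full light and at 108, 129 and 157 in low light. In mature leaves it stood at 2.05, 3.13 and 3.31 FPKM in full light and at 4.77, 3.9 and 5.51 in low light. The groups by age lay far apart, with a difference of 5.06 in full light (SE 0.20, adjusted p = 2.84e-08) and 4.52 in low light (SE 0.20, adjusted p = 9.20e-08), while its young libraries overlapped between lights. A second TCP4 unigene (CL6754.Contig1) stood at 9.77 to 25.9 FPKM in young and 0.11 to 0.72 in mature leaves. The TCP7-like unigene Unigene337, of the other TCP class, was second in level at 49.9 to 74.5 FPKM in young and 13.1 to 21.6 in mature leaves, a difference of 2.02 in full light (SE 0.20, adjusted p = 1.31e-05). A TCP20 unigene (Unigene33452), of the class that acts on growth and cell division, stood at 14.3, 10.8 and 9.63 FPKM in young leaves in low light and higher, at 37.5, 21.7 and 29.5, in mature leaves in low light, a difference of −1.27 (SE 0.26, adjusted p = 0.00279). In C. concinna 6 of 11 tested TCP unigenes were higher in young leaves in full light and 3 in low light, or 54.5% and 27.3% called against 28.4% and 37.8% of all unigenes. Its most abundant TCP unigenes changed little or not by the test: TCP7-like (Unigene22619) stood at 35 to 77.3 FPKM in young and 23.9 to 60.1 in mature leaves and was not called, and TCP2-like (Unigene2693) at 21 to 32.4 and 19.4 to 27.6 with a difference of 0.60 in full light (SE 0.20, adjusted p = 0.0394). No member of that species carries the TCP4 description, and its TCP15-like unigene (Unigene44080) led the called members with 8.02, 13.8 and 12.7 FPKM in young leaves in full light and 1.03, 0.45 and 0.93 in mature leaves, a difference of 2.78 (SE 0.37, adjusted p = 1.82e-04).

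**Figure D2:**
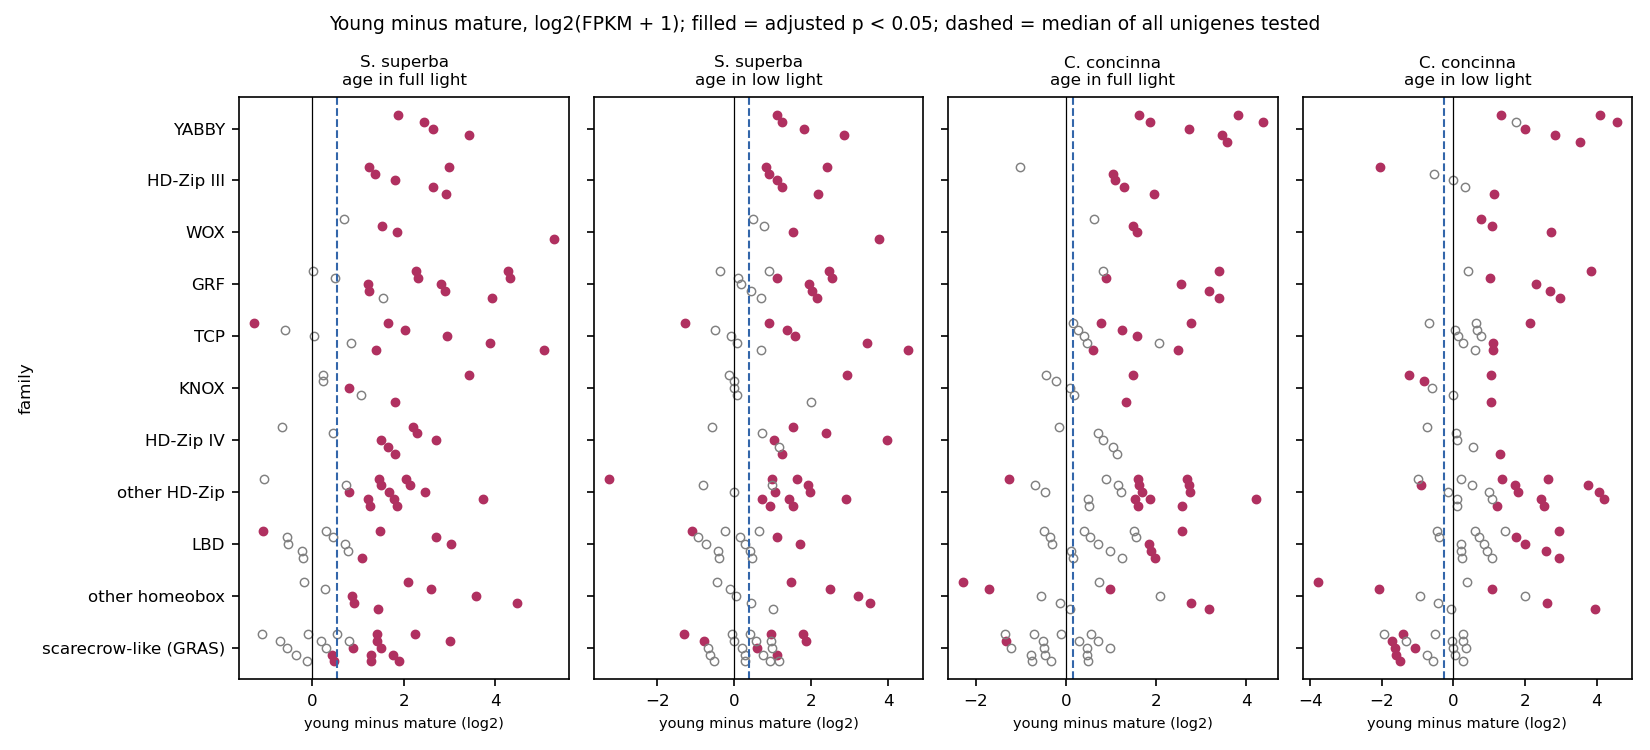
Young minus mature difference in log2(FPKM + 1) for each tested member, by family, in both species and lights; filled points passed an adjusted p under 0.05, open points did not, and the dashed line is the median of all unigenes tested. All YABBY points lie right of the dashed line in each panel, and GRAS members of C. concinna lie on both sides of 0 with 6 called lower in low light.

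KNOX factors were called in both directions. In S. superba 3 of 6 tested KNOX unigenes (50%) were higher in young leaves in full light and 1 (16.7%) in low light, against 46% and 38.7% of all unigenes called in either direction. In C. concinna 2 of 6 were higher in young leaves in both lights, both of the KNAT7 type, and 2 others were lower in young leaves in low light, so 33.3% and 66.7% were called, against 28.4% and 37.8% of all unigenes. The KNAT3 unigene of C. concinna (Unigene29333) stood at 71.5, 50.2 and 44.5 FPKM in young leaves in full light, 31.5, 18.7 and 39.7 in young leaves in low light, 62.5, 56.1 and 72.6 in mature leaves in full light and 68.6, 69.9 and 69.2 in mature leaves in low light. Its young low light libraries lay below all other libraries, a difference by age of −1.24 in low light (SE 0.27, adjusted p = 0.00404). The KNAT7 description Unigene40683 was the more abundant of the pair higher in young leaves, at 20.1 to 38.8 FPKM there and 10.1 to 18 in mature leaves. The most abundant KNOX unigene of the species, knotted-1-like 13 (Unigene8176), stood at 29.6 to 57.1 FPKM in young and 58.9 to 78.7 in mature leaves and was not called, though its ages did not overlap. In S. superba a pair of KNAT3 contigs of cluster CL4871 shifted against each other between libraries, CL4871.Contig1 at 33.8, 28.7 and 40.1 and CL4871.Contig2 at 16.9, 52.9 and 5.51 FPKM in young leaves in full light. The sum of that cluster was higher in young leaves, by 1.74 in full light (adjusted p = 6.05e-04) and 2.07 in low light (adjusted p = 2.69e-04). The KNAT3-like contigs of cluster CL5760 stood at 12.7 to 63.7 FPKM in all 12 libraries. Of these, CL5760.Contig3 was higher in young leaves in full light by 0.80 (SE 0.25, adjusted p = 0.0214), whereas their sum was not called, at 0.51 (adjusted p = 0.0859).

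HD-Zip IV factors specify the outer cell layer, and in S. superba 6 of 8 tested were higher in young leaves in full light and 5 in low light, most of them described as MERISTEM L1-like, which makes 75% and 62.5% called against 46% and 38.7% of all unigenes. A MERISTEM L1-like contig (CL6562.Contig1) stood at 37.8, 37.6 and 27 FPKM in young leaves in low light and at 2.1, 0.99 and 0.79 in mature leaves in low light, a difference of 3.96 (SE 0.48, adjusted p = 8.64e-05). In young leaves in full light it stood at 9.37, 19.3 and 4.29 FPKM, below all 3 low light libraries, but the light difference of −1.75 was not called (adjusted p = 0.0617). Summed over the 2 contigs of its cluster, the cluster stood at 26.5, 30.5 and 19.1 FPKM in full light and at 45, 45 and 34.8 in low light in young leaves, and the light difference shrank to −0.71 (adjusted p = 0.0959). The age difference of the sum in low light was 2.71 (SE 0.23, adjusted p = 5.18e-06). In C. concinna 0 of 5 HD-Zip IV unigenes were called by age by limma in full light, where 3 had an unadjusted p under 0.05, and 1 (20%) was called in low light, against 28.4% and 37.8% of all unigenes. GLABRA2, named for a regulator of hair cell fate, was not called by age in either species: it stood at 13 to 24.9 FPKM in young and 21.7 to 40.7 in mature S. superba leaves (Unigene23993), and at 8 to 29.4 and 16.5 to 24.4 FPKM in C. concinna (Unigene36247). HDG2 of C. concinna (Unigene6015), at 9.53 to 48.4 and 9.39 to 22.1 FPKM, was not called either.

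Among the other HD-Zip unigenes, 12 of 14 tested S. superba members were higher and 0 lower in young leaves in full light, and 10 higher and 1 lower in low light. Of all unigenes, 36.3% and 29.5% were called higher there. Of 19 tested C. concinna members 11 were higher and 1 lower in full light, and 10 higher and 1 lower in low light, against 20.2% and 17.1% of all unigenes called higher. The ATHB-6-like unigene of S. superba (Unigene33227), named for a factor of abscisic acid signalling, was the most abundant member of the species, at 209, 219 and 228 FPKM in young leaves in full light and 28.2, 70.9 and 69.7 in mature leaves, a difference of 2.05 (SE 0.32, adjusted p = 2.95e-04). HAT3, which in Arabidopsis acts on the upper leaf side, was represented in S. superba by Unigene27891 at 19.7, 14.6 and 21.2 FPKM in young and 0, 1.41 and 0.28 in mature leaves in full light, a difference of 3.73 (SE 0.44, adjusted p = 3.97e-05). Among class II unigenes of C. concinna, HAT14-like (Unigene15560) stood at 6.8 to 17.3 FPKM in young and at most 1.05 in mature leaves, and HOX11 (CL1312.Contig1) at 16.6 to 96.5 and 1.2 to 8.74 FPKM. Neither overlapped by age, and their differences in low light were 3.76 (SE 0.34, adjusted p = 7.02e-06) and 4.06 (SE 0.48, adjusted p = 6.15e-05). The HAT5-like contig of C. concinna (CL3883.Contig1) was among the most abundant of this group, at 75.7 to 123 FPKM in young and 6.2 to 51.4 in mature leaves. A second contig of its cluster (CL3883.Contig2) stood at 44 to 88 and 26.7 to 71 FPKM and was not called, and the summed cluster was called in full light, at 1.42 (adjusted p = 0.0105), but not in low light, at 0.83 (adjusted p = 0.0848).

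ATHB-51, known in Arabidopsis as a gene of the leaf margin and of meristem identity, stood at 1.57 to 5.82 FPKM in young S. superba leaves (Unigene15072) and was listed at 0 in all 6 mature libraries. In C. concinna an ATHB-51 contig (CL955.Contig2) stood at 12.8 to 24.5 FPKM in all young libraries and was listed at 0 in 5 of 6 mature libraries and at 0.09 in the other. ATHB-52 went the other way in both species, though in S. superba it was called by age in low light only. In S. superba (Unigene39857) it stood at 9.59, 5.25 and 9.56 FPKM in young leaves in low light and at 112, 43.6 and 122 in mature leaves in low light, a difference of −3.26 (SE 0.59, adjusted p = 0.00118), and mature leaves in full light varied from 6.08 to 43.2. In C. concinna (Unigene39340) it stood at 9.29, 13.9 and 14.9 FPKM in young and 21.3, 26.7 and 52.8 in mature leaves in full light, with no overlap and a difference of −1.26 (SE 0.33, adjusted p = 0.0122).

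LBD factors act at organ boundaries and in leaf polarity. In S. superba 4 of 13 tested were higher and 1 lower in young leaves in full light, or 38.5% called against 46% of all unigenes. In C. concinna 4 of 16 were higher, or 25% against 28.4%. The most abundant LBD members were not called by age as single unigenes: LBD21 (CL3309.Contig2) at 2.08 to 30.4 FPKM and LBD1-like (CL6020.Contig2) at 0.89 to 4.87 over the 12 S. superba libraries, and LBD37 (Unigene22227) at 1.96 to 11.3 and Unigene9746 at 1.3 to 9.61 over those of C. concinna. Summed over the 2 contigs of cluster CL6020, the LBD1-like level was higher in young leaves in full light, by 0.92 (SE 0.35, adjusted p = 0.0455), but was not called in low light, at 0.68 (adjusted p = 0.139). The LBD36-like contig CL4573.Contig2 of S. superba stood at 8.66, 6.34 and 6.86 FPKM in young leaves in full light and was listed at 0 in the mature libraries of that light. In C. concinna the LBD11 unigene (Unigene31690) stood at 1.99, 18.2 and 8.8 FPKM in young and at most 0.1 in mature leaves in low light, a difference of 2.96 (SE 0.58, adjusted p = 0.00196). A pair of LBD6-like contigs of C. concinna, a description that in Arabidopsis belongs to AS2, stood at 1.22 to 7.64 FPKM in young and at most 0.23 FPKM in mature leaves.

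Other homeobox unigenes, mostly zinc-finger homeodomain proteins, included both steep and flat patterns. Homeobox protein HB31 of S. superba (Unigene1498) stood at 31.7, 18.7 and 28.4 FPKM in young and 0.38, 0.12 and 0.11 in mature leaves in full light, and HB33 (Unigene35730) at 6.51 to 15.3 FPKM over the young and at most 0.12 over the mature libraries. The difference of HB31 was 4.48 (SE 0.25, adjusted p = 2.52e-07). The most abundant member of this family in S. superba, a zinc-finger homeodomain unigene (Unigene22827), stood at 45.2 to 73.1 FPKM in young and 51.9 to 109 in mature leaves and was not called, nor was the next most abundant (Unigene22826), at 15.2 to 28 FPKM over all 12 libraries. In C. concinna the most abundant was again a zinc-finger homeodomain unigene (Unigene17271), at 36.6 to 77.6 FPKM and not called. A unigene of that species described only as a homeobox protein (Unigene12782) stood at 9.97, 16.2 and 18.8 FPKM in young and 49, 37.2 and 65.9 in mature leaves in full light, and its 6 mature libraries lay above its 6 young ones. The difference was −1.70 in full light (SE 0.41, adjusted p = 0.00819) and −2.07 in low light (SE 0.41, adjusted p = 0.00209). A different homeobox unigene (CL2496.Contig2) ran the opposite way, at 10 to 25.3 FPKM in young and 0.08 to 0.88 in mature leaves. A contig whose best hit carries an animal gene name (CL4799.Contig2, abdominal-A) was listed at 0 in all 3 young low light libraries and stood at 15.8, 6.83 and 19 FPKM in mature leaves in low light (adjusted p = 8.32e-04).

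GRAS factors were called by age in both directions. In S. superba 12 of 22 were higher and 0 lower in young leaves in full light, and 5 were higher and 2 lower in low light, or 54.5% and 31.8% called against 46% and 38.7% of all unigenes. Both lower ones, SCL4 (CL4350.Contig1) and SCL22 (CL2284.Contig1), are contigs whose summed clusters were not called in low light. In C. concinna 0 of 18 tested were higher and 1 was lower in full light, and 0 were higher and 6 lower in low light, or 5.56% and 33.3% called against 28.4% and 37.8% of all unigenes. The species were extracted with different kits and tested apart, so the difference between them was not tested. Of the C. concinna members, SCL15 (Unigene7634) stood at 18.6, 12.7 and 16.8 FPKM in young and 43.4, 52.7 and 36.9 in mature leaves in low light, a difference of −1.41 (SE 0.29, adjusted p = 0.00246). SCL9 (CL2212.Contig1) was lower in young leaves in both lights, at 17, 10.4 and 8.44 against 23.2, 34.9 and 33.5 FPKM in full light, a difference of −1.32 (SE 0.32, adjusted p = 0.00897). In low light it stood at 7.4, 7.56 and 12.5 against 33.1, 18.9 and 30.9 FPKM, a difference of −1.49 (SE 0.32, adjusted p = 0.00368) that reached an adjusted p of 0.0552 without the low light libraries numbered 1. SCL1 (Unigene33150) stood at 9.44, 5.36 and 6.69 FPKM in young and 20.2, 23.7 and 26.8 in mature leaves in low light, a difference of −1.61 (SE 0.29, adjusted p = 0.00107), and SCL14 (Unigene4670), named for a factor of stress responses, at 3.26, 1.79 and 3.51 against 12.9, 7.28 and 15.8. A second SCL9 contig (CL2212.Contig2) and an SCL9 unigene (Unigene13009) were also lower in young leaves in low light, at 2.06 to 3.75 against 5.6 to 18.1 FPKM and at 1.41 to 2.22 against 2.98 to 7.11. Summed over both SCL9 contigs of cluster CL2212, the difference was −0.79 in full light (adjusted p = 0.0453) and −1.60 in low light (adjusted p = 6.95e-04). In S. superba SCL4 (CL4350.Contig1) stood at 6.52, 7.14 and 6.75 FPKM in young and 28.4, 18.5 and 11.7 in mature leaves in low light, a difference of −1.31 (SE 0.27, adjusted p = 0.00285). Its partner contig (CL4350.Contig2) ran the other way, at 22.1, 23.5 and 20.7 against 18.8, 15.3 and 10.8. Summed over both contigs the cluster stood at 28.6, 30.6 and 27.5 FPKM against 47.3, 33.8 and 22.4, and the difference of −0.19 was not called (adjusted p = 0.594). After rescaling of the libraries by median ratio, 6 GRAS members of C. concinna were lower in young leaves in full light, and the S. superba counts in full light were 8 higher and 2 lower. Calls over all unigenes shifted the same way. In C. concinna they went from 10691 higher and 4341 lower to 7438 higher and 8067 lower in that rescaling. In S. superba they went from 18496 higher and 4930 lower to 12328 higher and 7571 lower.

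That rescaling moved the median of all unigenes tested, so directions by age are relative to it. In S. superba the median fell from 0.55 to 0.17 in full light and from 0.39 to 0.12 in low light, and the member calls became 59 higher and 8 lower, and 42 higher and 9 lower. The share of member calls that were higher went from 97.3% to 88.1% and from 90.9% to 82.4%. Over all unigenes called, that share went from 79% to 62% and from 76.3% to 61.1%. In C. concinna in full light the median went from 0.17 to −0.15 and the member calls became 36 higher and 10 lower, so the share of member calls that were higher went from 91.7% to 78.3%. Over all unigenes called, it went from 71.1% to 48%. In low light the median went from −0.27 to −0.29, with 40 members higher and 15 lower. The share went from 76.5% to 72.7% of member calls and from 45.2% to 42.8% of all calls. YABBY, GRF and WOX members had no call in the lower direction in either species under this scaling.

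The second question was how the factors differ between full and low light. In young S. superba leaves 13 of 108 tested members were higher in full than in low light and 0 were lower. Over all unigenes tested, 5.33% were called, 3.02% higher and 2.32% lower. The median difference of the tested members was 0.39, beside 0.07 over all unigenes tested, and 47 of 108 had groups that did not overlap, beside 32.1% of all unigenes. The called members were 6 GRAS, 3 GRF, 2 LBD, 1 TCP and 1 WOX unigenes. No YABBY, HD-Zip, KNOX or other homeobox member passed the test, which does not show that these families lack a difference. HD-Zip III and YABBY members had medians of 0.75 and 0.65, beside 0.51 for GRAS. In 5 of the 6 HD-Zip III and 3 of the 4 YABBY unigenes the lights did not overlap. The medians of HD-Zip IV, KNOX, other HD-Zip and other homeobox members were −0.06, 0.00, 0.30 and 0.35.

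The TCP8-like unigene Unigene2474 stood at 25.6, 29.3 and 31.1 FPKM in young leaves in full light and at 8.61, 9.85 and 11.3 in low light. In mature leaves it stood at 2.94, 2.46 and 3.23 FPKM in full light and at 3.91, 2.53 and 3.34 in low light. Light separated the young libraries without overlap and left the mature ones overlapping, with a difference of 1.45 in young leaves (SE 0.19, adjusted p = 0.00483). The GRF6-like unigenes Unigene37581 and Unigene9262 were higher by 1.40 (SE 0.31, adjusted p = 0.0287) and 1.27 (SE 0.24, adjusted p = 0.0173), Unigene37581 at 22.4, 24.7 and 23.4 FPKM in full light and at 5.73, 6.78 and 14.2 in low light. The WOX1 unigene (Unigene3602), with the values given above, was higher by 1.37 (SE 0.27, adjusted p = 0.0189), its lowest full light library of 36.4 FPKM lying above its highest low light library of 19.8. LBD36-like unigenes were lower in level, Unigene30165 at 7.87, 4.34 and 4.84 FPKM in full light and at 1.65, 0.82 and 2.31 in low light, a difference of 1.37 (SE 0.30, adjusted p = 0.0266). The remaining GRF call was a GRF3 unigene (Unigene24425) near the bottom of the measured range, at 1.95, 1.28 and 1 FPKM in full light and at 0.42, 0 and 0 in low light.

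The GRAS members higher in full light in young S. superba leaves included SCL22 and SCL27 descriptions, which in Arabidopsis belong to the HAIRY MERISTEM group that maintains undifferentiated cells. SCL22 (CL2284.Contig1) stood at 29.7, 27 and 25.7 FPKM in young leaves in full light, at 11.4, 13.8 and 13.1 in young leaves in low light, at 22.8, 19.7 and 18 in mature leaves in full light and at 20.9, 21.5 and 25.7 in mature leaves in low light. The young low light libraries were the lowest of the 12, with a light difference of 1.05 in young leaves (SE 0.16, adjusted p = 0.00718). It was also the member called in opposite directions by age, at 0.43 in full light (SE 0.16, adjusted p = 0.0434) and −0.78 in low light (SE 0.16, adjusted p = 0.00247), and rescaling by median ratio gave −0.10 for age in full light. Summed over the 2 contigs of its cluster, the age difference was 0.90 in full light (adjusted p = 3.90e-04) and −0.36 in low light (adjusted p = 0.0728), so the opposite call in low light did not hold for the sum. An SCL27 unigene (Unigene5706) stood at 35.6, 27.2 and 24.5 FPKM in young leaves in full light against 13.7, 12.3 and 10.9 in low light, a difference of 1.17 (SE 0.19, adjusted p = 0.0096). SCL15 (CL6924.Contig1) stood at 26.3, 48 and 26.1 FPKM against 10.6, 13.1 and 12.8, a difference of 1.34 (SE 0.29, adjusted p = 0.0253). The remaining GRAS calls were an SCL27-like contig (CL2284.Contig2), SCL1-like (CL4253.Contig1) and SCL28 (CL5604.Contig2), the last named for a regulator of the cell cycle and at 5.88, 7.06 and 8.34 FPKM in full light and at 2.56, 3.47 and 3.6 in low light.

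**Figure D3:**
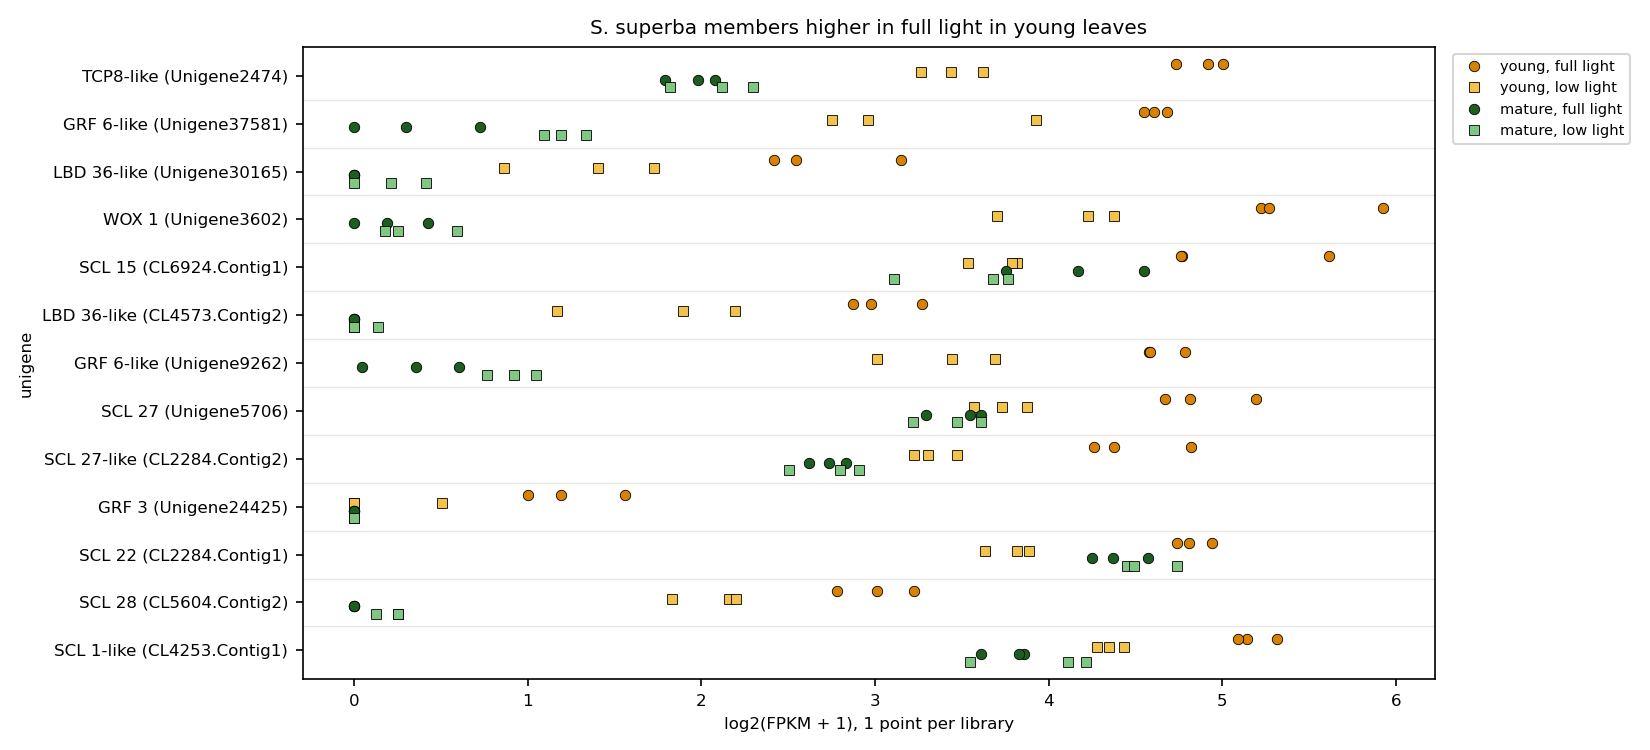
Level in log2(FPKM + 1) of the 13 S. superba members that were higher in full light in young leaves, with 1 point per library and the groups offset within each row. In every row the 3 points of young leaves in full light lie right of the 3 of young leaves in low light, and most rows have their mature points farther left.

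These light calls rested on few libraries, and the calls over all unigenes moved in the same direction. Without replicate 2 of young low light leaves, 2 of the 13 calls were left, SCL22 (CL2284.Contig1) and TCP8-like (Unigene2474). Calls over all unigenes fell from 2717 to 388 in that fit. Both members were also called in the other fits that left out libraries. Without replicate 3 of young low light leaves 9 members were called, 8 of them among the 13, and 941 unigenes in all. Without replicate 1 of mature full light leaves 15 members were called, 14 higher and 1 lower, and 3382 unigenes in all. Without replicate 1, 2 or 3 of young full light leaves 5, 8 and 6 members were called, 1 of the 8 lower. The calls over all unigenes were then 1100, 1433 and 1040. Summed over the 2 contigs of its cluster, the LBD36-like CL4573.Contig2 gave 1.43 and was not called (adjusted p = 0.0551). Chlorophyll-binding and Rubisco small subunit unigenes moved in the other direction in the same libraries: 0 of 36 tested were higher and 14 lower in full light, and their sum ran from 11555 to 16298 FPKM in full light and from 30321 to 41227 in low light. That made 38.9% of them called, against 5.33% of all unigenes. The 39 unigenes of the list matched on cyclin descriptions summed to 722 to 886 FPKM in full light and 616 to 679 in low light. Of 36 of them tested, 1 was called higher and 1 lower, or 5.56%. The part of either in the result was not tested.

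**Figure D4:**
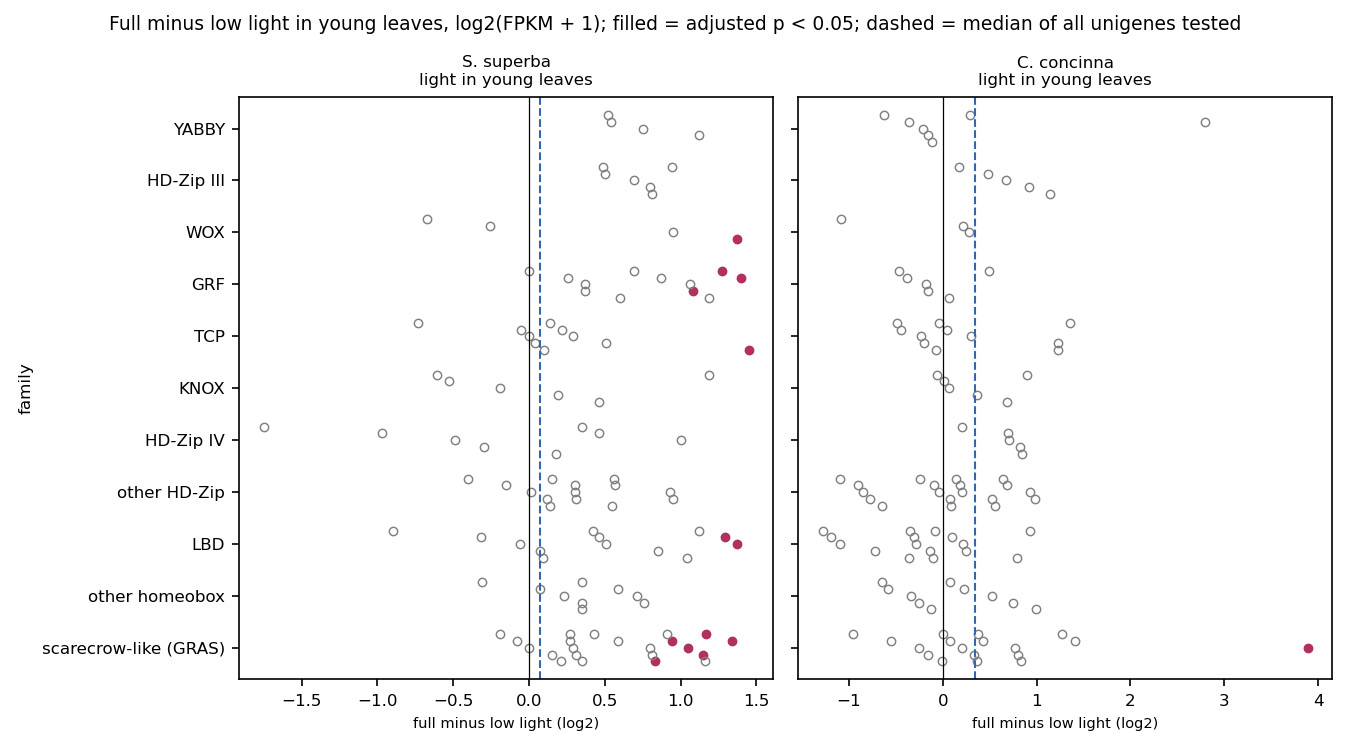
Full minus low light difference in log2(FPKM + 1) in young leaves for each tested member, by family, in S. superba (left) and C. concinna (right); filled points passed an adjusted p under 0.05 and the dashed line is the median of all unigenes tested. The 13 filled points of S. superba lie between 0.83 and 1.45, and the 1 filled point of C. concinna is an SCL21 contig that was listed at 0 in all young low light libraries.

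In mature S. superba leaves 0 of 108 tested members were called for light by limma, against 0.855% of all unigenes, 0.255% higher and 0.6% lower, and 20 members (18.5%) had an unadjusted p under 0.05, against 13.6% of all unigenes. The median difference of the tested members was −0.13, beside −0.09 over all unigenes tested. The light effect itself differed between young and mature leaves for 6 of 108 tested members, all with the more positive effect in young leaves, against 1.61% of all unigenes in either direction and 1.11% in this one. These were TCP8-like (Unigene2474) at 1.57 (SE 0.28, adjusted p = 0.0279), ATHB-15-like (CL2036.Contig3) at 1.72 (SE 0.30, adjusted p = 0.0279), SCL22 (CL2284.Contig1) at 1.21 (SE 0.22, adjusted p = 0.0316), the GRF6-like Unigene9262 at 1.84 (SE 0.35, adjusted p = 0.0322) and Unigene37581 at 2.27 (SE 0.44, adjusted p = 0.035), and YABBY5 (Unigene192) at 1.41 (SE 0.31, adjusted p = 0.0496). The count was 0 to 5 when 1 library was left out. It was 0 without replicate 2 and 1 without replicate 3 of young low light leaves, where 60 and 106 unigenes in all were called in place of 822. It was 4 without replicate 1 of mature full light leaves, with 630 unigenes in all. Without the low light libraries numbered 1 it was 0, with 239 unigenes in all.

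ATHB-15, an HD-Zip III factor of vascular and meristem patterning in Arabidopsis, showed the crossing pattern in its levels. CL2036.Contig3 stood at 18.1, 13.2 and 20.7 FPKM in young leaves in full light and at 12.1, 9.28 and 9.34 in low light, but at 1.74, 1.74 and 2.33 in mature leaves in full light and at 5.72, 4.77 and 4.53 in low light. Full light libraries were above low light ones in young leaves and below them in mature leaves, though neither light difference of the contig alone was called (adjusted p = 0.0877 for 0.69 and 0.0531 for −1.03). Summed over the 3 contigs of its cluster, the difference in young leaves was 0.79 and was called (adjusted p = 0.041), and that in mature leaves was −0.66 and was not (adjusted p = 0.154). By age the sum was higher in young leaves by 3.35 in full light and 1.91 in low light (adjusted p = 2.29e-07 and 2.27e-05). YABBY5 (Unigene192) stood at 78, 69.5 and 62.9 FPKM against 44.5, 36.9 and 42.7 in young leaves, and at 7.72, 15.3 and 9.17 against 18.8, 15.6 and 16.6 in mature leaves, with neither light difference called.

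In C. concinna few unigenes of any kind were called for light. Of 106 tested members 1 was called higher in full light in young leaves, against 0.0302% of all unigenes, 0.0245% of them in that direction. In mature leaves 1 was called higher, against 0.0566% of all unigenes, 0.0302% higher and 0.0264% lower. For light by age 0 were called by limma, against 0.00566% of all unigenes, 0.00377% higher and 0.00189% lower. The members with an unadjusted p under 0.05 numbered 22, 7 and 15 in these comparisons, or 20.8%, 6.6% and 14.2%, against 17.9%, 6.59% and 10.8% of all unigenes. Median differences of the tested members were 0.08 in young and −0.10 in mature leaves, beside 0.34 and −0.05 over all unigenes tested. After rescaling by median ratio the members had −0.23 and −0.02, beside 0.14 and 0.02 over all unigenes tested.

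The 1 member called for light in C. concinna was an SCL21 contig (CL2988.Contig2), in Arabidopsis a factor of phytochrome signalling. It stood at 28.6, 13.4 and 6.63 FPKM in young leaves in full light and was listed at 0 in all 3 young low light libraries (adjusted p = 0.02), and it stood at 14.1, 45.5 and 22.7 FPKM in mature leaves in full light and at 0.75, 0.84 and 0 in low light, a difference of 4.11 (SE 0.51, adjusted p = 0.0149). A second contig of the same cluster (CL2988.Contig3) ran the other way, at 3.21, 19.4 and 34.4 FPKM in young leaves in full light and at 27.5, 24.3 and 30 in low light, and at 52.1, 19.3 and 45.2 in mature leaves in full light and at 70, 63.9 and 75 in low light. Summed over its 3 contigs, the cluster stood at 32.7, 33.2 and 41.8 FPKM in young leaves in full light and at 27.5, 24.3 and 30 in low light, and at 66.2, 66 and 67.8 against 70.8, 65.2 and 75 in mature leaves. The sum was not called for light, at 0.38 in young leaves (adjusted p = 0.278) and −0.07 in mature leaves (adjusted p = 1), so the light call of the single contig did not hold for the cluster. By age the summed cluster was lower in young leaves, by −0.88 in full light (adjusted p = 0.00295) and −1.34 in low light (adjusted p = 1.34e-04). The call of the contig was also lost when certain single libraries were left out, with adjusted p up to 0.0992 in young and 0.0794 in mature leaves.

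**Figure D5:**
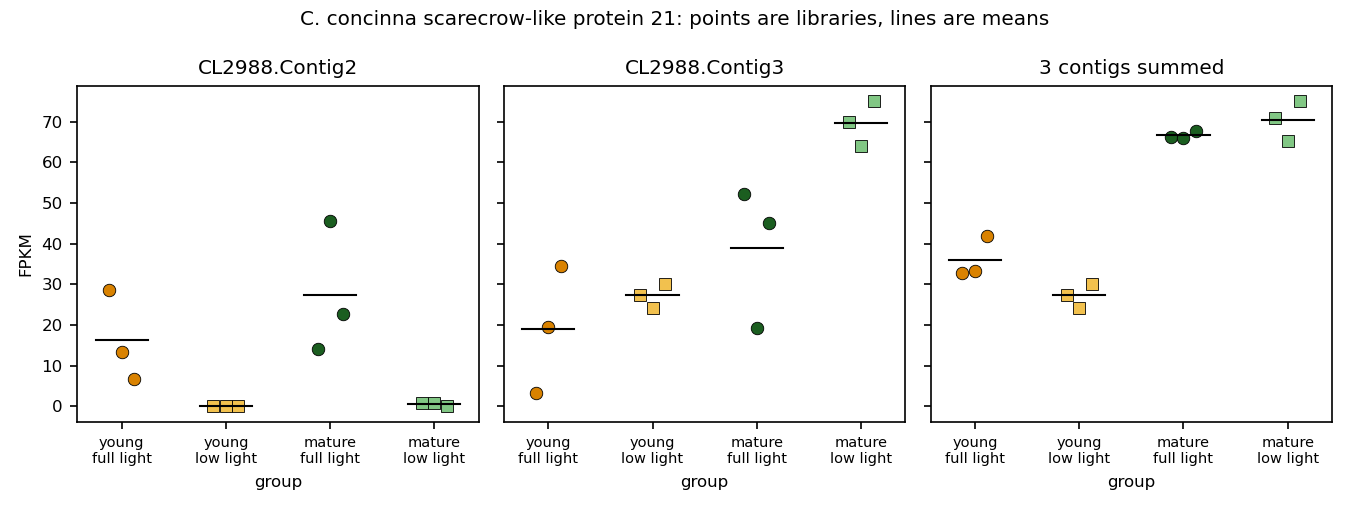
FPKM of 2 SCL21 contigs of C. concinna and of the sum over the 3 contigs of their cluster in the 4 groups, with points for libraries and lines for means. The first contig is at or near 0 in low light and the second is not. The summed full light points of mature leaves lie within the range of the low light points, 65.2 to 75 FPKM.

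Other genes of leaf growth and patterning were taken by description, 20 unigenes in S. superba and 32 in C. concinna. In each species 1 of them matched only through the species name of its hit, a thioesterase (Unigene1505) and a metallothionein (Unigene1241), and counts here leave these out, a choice made after seeing the data. In S. superba 9 of 18 tested were higher and 4 lower in young leaves in full light, against 36.3% and 9.67% of all unigenes, and 8 higher and 4 lower in low light, against 29.5% and 9.19%. In C. concinna 15 of 29 tested were higher and 2 lower in full light, against 20.2% and 8.19%, and 13 higher and 4 lower in low light, against 17.1% and 20.7%. The AS1 unigene of S. superba (CL6402.Contig2), named for a MYB factor that keeps KNOX genes off in leaves, had means of 106 and 79.2 FPKM in young leaves in full and low light and of 2.02 and 2.41 in mature leaves, a difference of 5.16 in full light (SE 0.30, adjusted p = 2.86e-07). LONGIFOLIA1 of C. concinna (CL2043.Contig1), which promotes leaf elongation in Arabidopsis, had means of 10.7 and 7.19 FPKM in young and 0.283 and 0.33 in mature leaves, a difference of 3.18 in full light (SE 0.50, adjusted p = 5.86e-04).

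Cytochrome P450 genes of the CYP78A group, which promote organ growth in Arabidopsis, were found in both directions. In S. superba a CYP78A3 unigene (CL5948.Contig1) was listed at 0 in young leaves in full light, with a mean of 10.5 FPKM in mature leaves (adjusted p = 6.36e-06). A second (CL93.Contig2) had a mean of 0.11 FPKM in young and 14 in mature leaves in low light, a difference of −3.77 (SE 0.29, adjusted p = 3.16e-06). A CYP78A5-like unigene (Unigene33208) was instead higher in young leaves and in full light, with means of 5.97 and 1.76 FPKM in young leaves in full and low light, a light difference of 1.37 (SE 0.27, adjusted p = 0.019) that reached an adjusted p of 0.0841 in the fits that left out libraries. In C. concinna a CYP78A5-like unigene (CL2930.Contig1) had means of 6.99 and 2.73 FPKM in young and 57.1 and 119 in mature leaves, a difference of −5.08 in low light (SE 0.49, adjusted p = 1.34e-05). An OVATE family unigene of S. superba (Unigene24996), named for a repressor of growth, had means of 8.26 and 1.81 FPKM in young leaves in full and low light, a light difference of 1.72 (SE 0.22, adjusted p = 0.0041), and was listed at 0 in all mature libraries. A different OVATE unigene of S. superba (CL708.Contig1) had means of 15.5 and 8.82 FPKM in young and 1.42 and 8.3 in mature leaves in full and low light, and was lower in full light in mature leaves, by −1.92 (SE 0.37, adjusted p = 0.0428). With single libraries left out its adjusted p ranged from 0.0356 to 0.105. Its light by age difference was 2.60 (SE 0.53, adjusted p = 0.0392), with a range of 0.0339 to 0.111, and that of Unigene24996 was 1.72 (SE 0.31, adjusted p = 0.0295), with a range of 0.041 to 0.0848. OVATE family protein 13 of C. concinna (Unigene42271) had means of 10.5 and 34.9 FPKM in young and 0.977 and 1.63 in mature leaves, a difference of 3.58 in low light (SE 0.65, adjusted p = 0.00125). In all, 2 of 18 tested genes of this list were higher in full light in young S. superba leaves, against 3.02% of all unigenes, 1 was lower in mature leaves, against 0.6%, and 2 were called for light by age, against 1.61%. In C. concinna 0 of 29 were called for light at either age by limma, against 0.0302% and 0.0566% of all unigenes.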

How the data were processed

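RNA came from leaves of tree seedlings, extracted with a Sangon column kit for S. superba and a Magen kit for C. concinna, with standard Illumina libraries, per the labels' protocols. The authors deposited FPKM per unigene and library. The tool named is RSEM 1.2.12, per the submitters' processing notes. The assembler, aligner and read numbers are not given in the sources used here, so depth is unknown and no counting interval or floor was computed. A value of 0 is read as listed at 0.

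Each species was analysed apart. Unigenes reaching 1 FPKM in 3 or more of 12 libraries entered limma 3.58.1 with trend in R 4.3.3, as log2(FPKM + 1). All 4 groups shared the spread, tests were two-sided, and Benjamini-Hochberg adjustment ran over all unigenes tested. Per species 5 comparisons were made: full against low light at each age, young against mature leaves in each light, and the interaction of both. Comparisons of light and of age share libraries. The fit was tested on simulated data. Tables and figures used Python 3.11.15, pandas 2.3.3, numpy 2.4.6 and matplotlib 3.10.9.

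Named per species were the 2 most abundant members of each family, in each comparison the called members with the 10 largest differences in either direction among those with a group mean of at least 5 FPKM, and the 2 largest called differences of other leaf growth genes above that mean. Unigene15072, Unigene28456, Unigene24425, Unigene40683, Unigene33027, Unigene31802, the LBD6-like contigs, CL4253.Contig1, CL5604.Contig2 and CL4536.Contig3 were chosen for naming after their values were seen. The members, families and lists were chosen with earlier results of these data known. Alternatives were a pseudocount of 0.1, no filter, median-ratio rescaling, contigs summed per cluster, a replicate block, and leaving out each library or the low light libraries numbered 1.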

Additional observations from a re-analysis of the deposited data

Results flagged for a closer look

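In S. superba the light effect differed between young and mature leaves, by a test of the difference itself, for 6 members. On the log2(FPKM + 1) scale the young leaf effect exceeded the mature leaf effect by 2.27 for the GRF6-like Unigene37581, 1.84 for the GRF6-like Unigene9262, 1.72 for the ATHB-15-like CL2036.Contig3, 1.57 for the TCP8-like Unigene2474, 1.41 for the YABBY5 unigene Unigene192 and 1.21 for the SCL22 contig CL2284.Contig1. The limma adjusted p-values ran from 0.0279 to 0.0496. The highest adjusted p of each in the fits without certain libraries ran from 0.0858 to 0.136. With the contigs of a cluster summed, cluster CL2036 gave 1.44 (adjusted p = 0.0316) and cluster CL2284 gave 1.26 (adjusted p = 0.0203).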

How the results depend on the processing

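The counts of members called by age stayed within 1.5 times the reported count under every alternative run, at 64 to 74 and 47 to 59 in S. superba and 40 to 49 and 41 to 54 in C. concinna when 1 library was left out, and 34 in C. concinna in low light without the low light libraries numbered 1. Light counts moved more. For light in young S. superba leaves, 13 members became 6 with a pseudocount of 0.1, 7 without the low light libraries numbered 1, and 2 to 15 with 1 library left out. For light in mature S. superba leaves, 0 became 1 with a pseudocount of 0.1 and 1 with median-ratio rescaling, and 0 to 1 with 1 library left out. For light by age in S. superba, 6 became 3 with a pseudocount of 0.1, 2 with the replicate block, 0 without the low light libraries numbered 1, and 0 to 5 with 1 library left out. In C. concinna the 1 call for light in young leaves and the 1 in mature leaves each became 0 with contigs summed per cluster and 0 without the low light libraries numbered 1, and 0 to 1 with 1 library left out. The 2 reversals were SCL22 (CL2284.Contig1) for age in full light, at −0.10 after median-ratio rescaling (adjusted p = 0.705), and SCL21 (CL2988.Contig2) for light in mature leaves, at −0.07 with contigs summed, whose construction adds a contig that ran the other way. The cause of the other changes was not tested.

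Replicate numbers were not taken to pair the libraries, because for no pair of groups were all 3 same-numbered correlations of deviations over 0.1. They ran from −0.027 to 0.324 in S. superba and from −0.24 to 0.256 in C. concinna. The closest case was young and mature low light leaves of S. superba, at 0.324, 0.104 and 0.0999, where differently numbered libraries reached 0.132 and 2 of 6 libraries correlated best with their own number. With the replicate block, 11 members were called for light in young S. superba leaves, 73 and 55 for age, and 48 and 54 for age in C. concinna. Of 117 named calls, 12 were lost with a pseudocount of 0.1, 8 with the block, 7 after rescaling, 6 with contigs summed, 23 without the low light libraries numbered 1 and 1 without a filter, while 31 were lost in at least 1 fit that left out a library. Read depth is unknown, which leaves levels near 0 without a counting error.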

Other observations

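Some members stood out in 1 library of their group, chosen after their values were seen. In mature full light S. superba leaves an SCL13 contig (CL4536.Contig3) stood at 87.1 FPKM in replicate 1 and at 13.3 and 14.6 in the others, and an LBD4-like unigene (Unigene33027) at 16.4 FPKM against 0.24 and 0.48. In C. concinna an ATHB-40-like unigene (Unigene31802) stood at 8.56 FPKM in replicate 1 of young full light leaves against 0.73 and 0.98.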
